A study of Mus musculus with 4 samples.

Results

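Nuclear-encoded subunits of the mitochondrial respiratory chain were compared between wild-type (WT) R1 embryonic stem cells (ESCs) and a *Zfp296* knockout (KO) clone. They were chosen by name alone, as protein-coding nuclear genes whose symbols start with Ndufa, Ndufb, Ndufc, Ndufs, Ndufv, Uqcr, Cox4i, Cox5, Cox6, Cox7, Cox8 or Atp5, leaving out the Ndufaf assembly factors and adding Sdha, Sdhb, Sdhc, Sdhd and Cyc1. Of the 48526 gene identifiers in the count files, 88 met this rule, with 39 in complex I, 4 in complex II, 9 in complex III, 18 in complex IV and 18 in complex V. They carried 87 symbols, since Ndufb8 had a pair of identifiers.

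R1 is an established mouse ESC line. Total RNA depleted of ribosomal RNA was sequenced from 2 WT samples and from 2 samples of clone 2 (KO2), which the study made from R1 cells with CRISPR/Cas9 guides against the first exon of *Zfp296*, followed by puromycin selection. Both groups were grown on gelatine in serum with LIF and the inhibitors PD0325901 and CHIR99021. KO2 is 1 monoclonal line, so that the knockout and a trait of the clone cannot be told apart, and the sources used here do not say whether the 2 samples of a group came from separate cultures, so that p-values measure only the spread between them.

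The respiratory chain sits in the inner mitochondrial membrane. Complexes I and II pass electrons from NADH and succinate to ubiquinone, complex III hands them to cytochrome c, complex IV gives them to oxygen, and complex V, the ATP synthase, uses the resulting proton gradient to make ATP. Every complex except II mixes subunits from nuclear genes with a few from the mitochondrial genome, and several subunits of complex IV exist as tissue-specific isoforms encoded by separate genes.

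Gene-assigned reads per library ranged from 2829914 to 4334499 in WT and from 7437294 to 7470907 in KO2, so both KO2 libraries were deeper. A total of 3 counts corresponds to between 0.38 and 1.12 CPM, the usual measure of counts scaled to library size, here with TMM factors. Of 12883 genes tested with edgeR's quasi-likelihood test, 727 passed an adjusted p of 0.05. *Zfp296* RNA itself was higher in KO2, rising from 9.44 ± 2.99 to 45.2 ± 10.6 CPM (SD, n = 2 per group; edgeR adjusted p = 4.55e-05). *Zfp296* had been chosen as a check of the labels. Its RNA did not fall in KO2, so the labels remain unchecked by it, and the cause of the rise was not tested. All 7 ESC markers matched (*Pou5f1*, *Nanog*, *Sox2*, *Zfp42*, *Esrrb*, *Klf4* and *Dppa5a*) were present in every library. *Sox2*, a core pluripotency factor, fell from 839 ± 47.2 to 486 ± 4.39 CPM (SD, n = 2 per group; 0.579-fold, edgeR adjusted p = 7.84e-05), and the other 6 did not pass the test. The summed level of 6 fibroblast markers was 3.35 to 13.2 CPM, of 6 primitive endoderm markers 0.945 to 8.2 CPM and of 4 trophectoderm markers 3.42 to 9.09 CPM, with *Twist2* and *Afp* at 0 in every library. The 6 markers of primed epiblast and early lineages summed to 144 and 149 CPM in WT and 177 and 182 CPM in KO2, nearly all of it from *Nes* and *Otx2*, with *Fgf5* and *T* at 0 in every library. *Nes* was at 97.6 and 86.5 CPM in WT and 113 and 120 CPM in KO2 and did not pass the test (edgeR adjusted p = 0.158). The part of these markers in the subunit values was not tested.

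The genes for the respiratory chain were, as a group, at a near-equal level in WT and KO2. Of the 88 subunit genes, 81 passed the filter on low counts, 1 of them fell in KO2, none rose, and 80 did not pass the test. Across all tested genes, 5.64% passed, with 2.61% higher and 3.04% lower in KO2, so the share of subunits called was below that of the background. The only subunit called was Ndufa4l2, a hypoxia-inducible relative of Ndufa4. With edgeR, 7 subunits were higher and 6 lower at an unadjusted p under 0.05, together 16% of those tested, against 19.4% of all tested genes. DESeq2 called the same 1 gene lower and none higher, with 2 higher and 4 lower at an unadjusted p under 0.05.

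The median log2 fold change (KO2 over WT) of the 81 subunits was -0.02, beside 0.01 over all tested genes. It was -0.05 in complex I, 0.06 in complex II, 0.08 in complex III, -0.18 in complex IV and 0.06 in complex V. For 44 subunits the 95% confidence interval lay within a 1.5-fold change in either direction (54.3%, against 30.5% of all tested genes), and for 68 it lay within 2-fold (84%, against 56.4%). Both KO2 replicates exceeded both WT replicates for 13 subunits and lay below both for 17, and the groups overlapped for the other 51. Over all tested genes, 25.4% lay wholly above and 23.4% wholly below. The median SE was 0.17 on the log2 scale for the subunits and 0.26 over all tested genes, and the median 95% interval of a subunit reached 0.36 to either side.

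**Figure D1:**
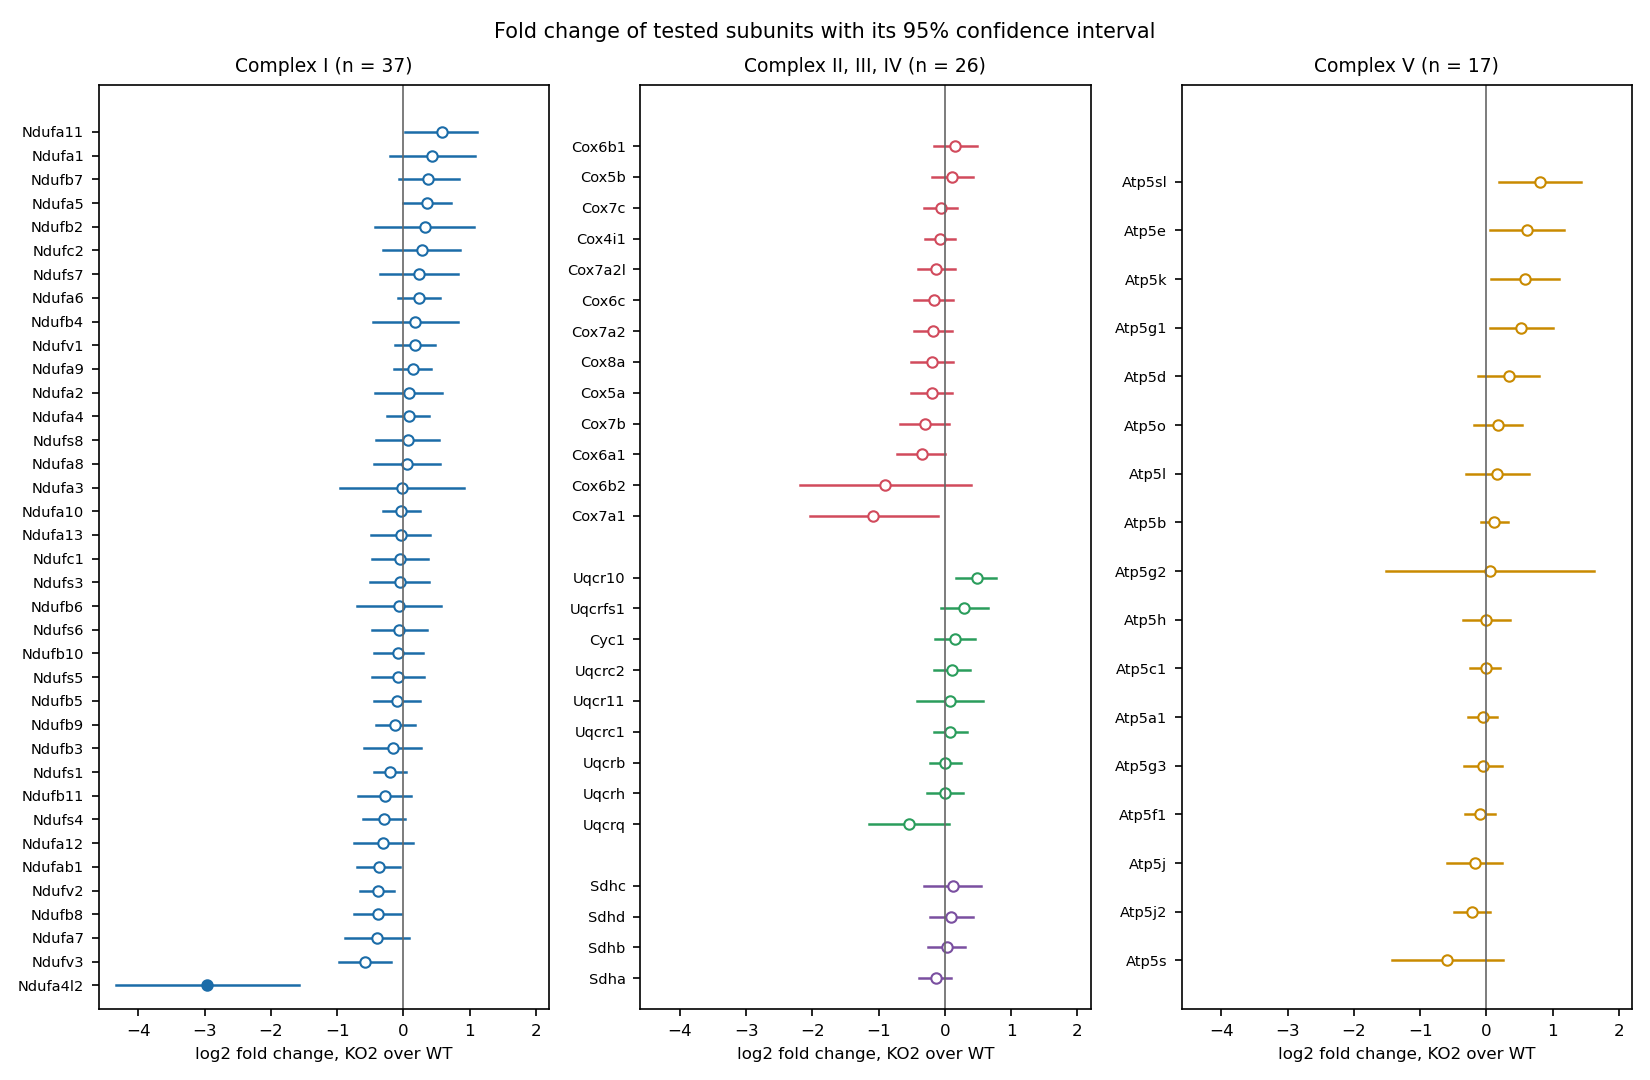
Log2 fold change (KO2 over WT, x axis) of 80 of the tested subunits, sorted within each complex, with lines for the 95% confidence interval. The filled point, Ndufa4l2 at -2.96, is the only one that passed the edgeR test, and most others lie within 0.5 of zero.

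The plot of fold changes shows most values close to zero. The log2 fold change was under 0.5 in size for 70 of the 81 tested subunits. Over all 12883 tested genes, whose median SE was larger, it was under 0.5 for 9337. Summed over all 88 genes, the level was 9763 and 9056 CPM in WT against 9515 and 9147 CPM in KO2, a KO2 over WT ratio of 0.992. Since these are bulk samples, fewer cells of a type and less RNA per cell cannot be told apart.

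Summed by complex, the groups overlapped for complexes I, II and V. Complex I reached 2628 and 2259 CPM in WT and 2409 and 2260 CPM in KO2, and complex V 4046 and 3881 CPM in WT and 4115 and 4026 CPM in KO2. In contrast, complex III was at 1005 and 965 CPM in WT and 1085 and 1034 CPM in KO2, with both KO2 values above both WT values. Complex IV went the other way, at 1593 and 1495 CPM in WT and 1430 and 1386 CPM in KO2, a ratio of 0.912 that was given no test. The 13 mitochondrially encoded subunits, which these proteins partner, stood apart from all of them. Their summed level was 5230 and 4356 CPM in WT and 2480 and 3053 CPM in KO2, a ratio of 0.577. Of the 12 tested, 8 fell in KO2 and none rose with edgeR and with DESeq2. Over all tested genes 3.04% fell with edgeR. At an unadjusted p under 0.05 edgeR had 9 lower and 0 higher. The median log2 fold change was -0.92, but values ran from -2.68 for *mt-Nd6* to -0.06 for *mt-Nd3*. Levels were uneven, with WT means of 2668 CPM for *mt-Co1*, 13.7 CPM for *mt-Co2* and 5.94 CPM for *mt-Nd3*. The most abundant, *mt-Co1*, was at 2952 and 2385 CPM in WT and 1750 and 2239 CPM in KO2. It did not pass the test (-0.42, edgeR adjusted p = 0.0514). Whether reads of these genes also map elsewhere was not tested.

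**Figure D2:**
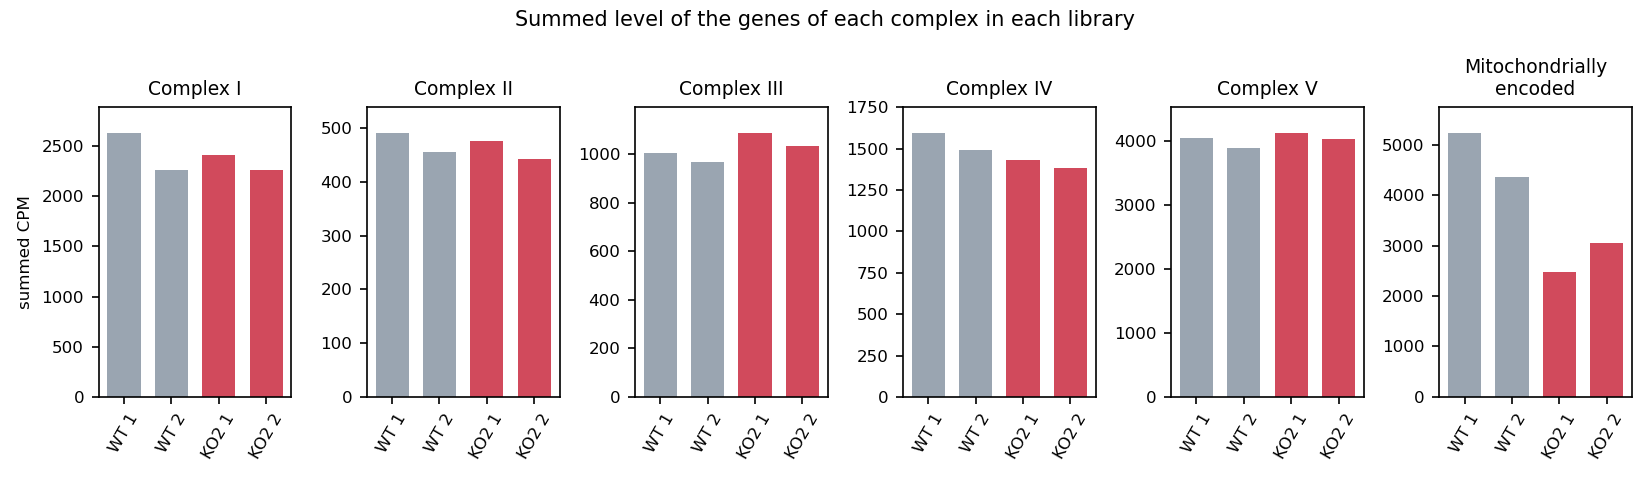
Summed CPM (y axis, from 0, with its own scale per panel) of the genes of each complex and of the 13 mitochondrially encoded subunits in the 4 libraries; grey bars are WT and red bars KO2. The nuclear sums differ by less than 10% between groups, while the mitochondrially encoded sum is 5230 and 4356 CPM in WT and 2480 and 3053 CPM in KO2.

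Complex I takes electrons from NADH. Its 7 conserved nuclear core subunits hold the flavin and the iron-sulphur clusters, and none passed the test (4 with a positive and 3 with a negative log2 fold change, median 0.07). Ndufs1, the largest subunit of the NADH-oxidising module, was at 224 and 201 CPM in WT and 179 and 189 CPM in KO2 (0.868-fold, 95% interval 0.731 to 1.03). Its groups did not overlap, but it did not pass the test.

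Ndufv2, the iron-sulphur partner of Ndufv1 in the NADH-oxidising module, came closest to the threshold among the core subunits. It was at 230 and 198 CPM in WT and 163 and 162 CPM in KO2, with a log2 fold change of -0.39 ± 0.12 (SE; edgeR adjusted p = 0.0651). Ndufv1, which binds NADH and the flavin, was at 95.8 and 78.2 CPM in WT and 101 and 93.6 CPM in KO2, so the groups overlapped. Ndufv3, an accessory subunit of the same module, was at 47.0 and 52.0 CPM in WT and 36.0 and 30.5 CPM in KO2 (log2 fold change -0.58 ± 0.19, edgeR adjusted p = 0.0796). With offsets for gene length in edgeR both Ndufv2 (-0.45, adjusted p = 0.0347) and Ndufv3 (-0.63, adjusted p = 0.0454) passed the threshold. Over 13 alternatives Ndufv2 ranged from -0.50 to -0.28 and passed in 2, with adjusted p from 0.0347 to 1, and Ndufv3 ranged from -0.70 to -0.47 and passed in 1, with adjusted p from 0.0454 to 0.816. Among the other core subunits, Ndufs3, Ndufs7 and Ndufs8 had log2 fold changes of -0.05, 0.24 and 0.07 and overlapping groups.

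Accessory subunits surround the core and stabilise it, and by name 32 genes were counted here. They include Ndufa4, its relative Ndufa4l2 and both Ndufb8 identifiers. Of these 31 were tested, 1 fell (Ndufa4l2) and none rose, with a median log2 fold change of -0.05. Ndufa11, a subunit of the membrane arm, had the highest value in complex I, at 19.8 and 14.9 CPM in WT and 25.0 and 25.7 CPM in KO2 (log2 fold change 0.58 ± 0.26, edgeR adjusted p = 0.228). Ndufab1, the mitochondrial acyl carrier protein, was at 71.2 and 71.1 CPM in WT and 57.3 and 52.7 CPM in KO2 (-0.37 ± 0.15, edgeR adjusted p = 0.189). Both had groups that did not overlap but missed the threshold after adjustment.

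The accessory genes with non-overlapping groups lay on both sides, where 25.4% of all tested genes lay wholly above and 23.4% wholly below. Both KO2 replicates were higher for Ndufa1, Ndufa5, Ndufa6, Ndufa11 and Ndufb7, and both were lower for Ndufb8, Ndufb9, Ndufb11, Ndufs4, Ndufv3, Ndufab1 and Ndufa4l2. Ndufs4, which is needed for a stable NADH-oxidising module, was at 95.4 and 78.0 CPM in WT and 68.2 and 73.0 CPM in KO2 (0.819-fold, interval 0.657 to 1.02). The accessory subunits Ndufa2 and Ndufs6 had log2 fold changes of 0.08 and -0.06 and overlapping groups. Ndufa9, which lies between the peripheral and the membrane arm, was at 196 and 157 CPM in WT and 181 and 208 CPM in KO2 (1.1-fold, interval 0.91 to 1.34). Ndufa13, also known as GRIM-19, was at 55.5 and 41.6 CPM in WT and 56.6 and 36.5 CPM in KO2, so each group spanned much the same range.

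A pair of accessory subunits passed the threshold only when a library was left out. Ndufb8, a subunit of the distal membrane arm, was at 123 and 81.8 CPM in WT and 78.6 and 76.1 CPM in KO2 (log2 fold change -0.39, edgeR adjusted p = 0.206), and its first WT replicate stood above the other libraries. Its log2 fold change was -0.66 without WT replicate 2 (edgeR adjusted p = 0.0331) and -0.08 without WT replicate 1 (edgeR adjusted p = 0.828). Ndufa7 was at 78.6 and 50.3 CPM in WT and 60.2 and 36.0 CPM in KO2, with overlapping groups (-0.40, edgeR adjusted p = 0.36). Without KO2 replicate 1 it was at -0.80 (edgeR adjusted p = 0.024), without WT replicate 2 at -0.71 (adjusted p = 0.164), without WT replicate 1 at -0.06 (adjusted p = 0.925) and without KO2 replicate 2 at -0.07 (adjusted p = 0.927).

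Ndufa4l2 was the 1 subunit gene that fell. It lies at chr10:126951995-126954208 on the plus strand (mm9) and had 13 and 34 counts in WT replicates 1 and 2 and 5 and 8 counts in KO2 replicates 1 and 2. These correspond to 4.84 and 8.03 CPM in WT and to 0.634 and 1.07 CPM in KO2, so the groups did not overlap although the KO2 libraries were deeper. The log2 fold change was -2.96 ± 0.66 (edgeR adjusted p = 0.0108), or 0.129-fold with a 95% interval of 0.0495 to 0.335. The gene passed the filter on low counts through the WT libraries alone, since both KO2 counts were under the minimum of 10. Entry through the higher group favours a call of lower in KO2. The call rests on few counts. It was lost without WT replicate 2 (-2.49, adjusted p = 0.191), without KO2 replicate 1 (-2.63, adjusted p = 0.0759) and without the filter on low counts (-2.93, adjusted p = 0.154), all in edgeR, and a filter of 10 counts in every sample removed the gene.

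Ndufa4l2 shares 1.5% of its exonic bases with *Shmt2*, a mitochondrial serine hydroxymethyltransferase gene on the opposite strand. *Shmt2* was at 88 and 110 CPM in WT and 61.5 and 55.3 CPM in KO2 and fell as well (log2 fold change -0.77, edgeR adjusted p = 0.00509). The libraries were strand-specific, but the strand setting of the count is not given in the sources used here, and the part of *Shmt2* in the Ndufa4l2 value was not tested. Ndufa4 itself, the widely expressed relative, which is listed with complex I by name but has been assigned to complex IV, was at 151 and 110 CPM in WT and 150 and 123 CPM in KO2. Its groups overlapped (1.05-fold, interval 0.845 to 1.31). Counting it with complex IV left the medians at -0.05 for complex I and -0.18 for complex IV. *Hif1a* encodes the oxygen-regulated factor under which Ndufa4l2 is induced in hypoxia. Its RNA was at 292 and 311 CPM in WT and 246 and 297 CPM in KO2. It did not pass the test (log2 fold change -0.15, edgeR adjusted p = 0.526). The level and activity of its protein were not tested.

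Complex II is succinate dehydrogenase, the only respiratory complex made wholly from nuclear genes. None of its 4 subunits passed the test and the groups overlapped for each. Sdha, the flavoprotein, was at 260 and 233 CPM in WT and 237 and 209 CPM in KO2 (0.905-fold, interval 0.762 to 1.07). Sdhb, which carries the iron-sulphur clusters, was at 113 and 131 CPM in WT and 126 and 123 CPM in KO2 (1.02-fold, interval 0.842 to 1.23). The membrane anchors Sdhc and Sdhd had log2 fold changes of 0.12 and 0.10. The interval lay within 1.5-fold for all 4 genes.

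Complex III passes electrons from ubiquinol to cytochrome c. Of its 9 genes, 8 had a log2 fold change above zero, against 6618 of all 12883 tested genes, and none passed the test. Uqcr10, a small membrane subunit, was at 87.6 and 71.8 CPM in WT and 116 and 105 CPM in KO2. Both KO2 values lay above both WT values, and the log2 fold change was 0.48 ± 0.15 (edgeR adjusted p = 0.0639). It passed the threshold in 2 of 13 alternatives, among them a minimum of 10 counts per library (0.50, edgeR adjusted p = 0.0407). It did not pass with offsets for gene length (0.33, edgeR adjusted p = 0.206) or with DESeq2 (0.47, adjusted p = 0.152). Over all 13 it ranged from 0.33 to 0.62, with adjusted p from 0.0346 to 0.717. The catalytic subunits did not pass, with log2 fold changes of 0.15 for Cyc1, which carries the haem of cytochrome c1, and 0.29 for Uqcrfs1, the Rieske iron-sulphur protein. The large core proteins Uqcrc1 and Uqcrc2, related to mitochondrial processing peptidases, were at 1.06-fold (interval 0.89 to 1.26) and 1.08-fold (interval 0.894 to 1.3). Uqcrh, the hinge protein that aids binding of cytochrome c, was at 115 and 114 CPM in WT and 113 and 117 CPM in KO2, with a log2 fold change of 0.00. Uqcrq, another small subunit, was the 1 gene below zero, at 21.6 and 18.9 CPM in WT and 15.5 and 12.2 CPM in KO2 (-0.54 ± 0.29, edgeR adjusted p = 0.317).

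Complex IV, cytochrome c oxidase, draws its catalytic core from the mitochondrial genome, and its nuclear subunits surround that core. Of the 13 tested, 11 had a log2 fold change below zero, 5 had both KO2 replicates below both WT replicates, none had both above, and none passed the test. Over all 12883 tested genes, 6265 had a log2 fold change below zero, 23.4% lay wholly below and 25.4% wholly above. Cox6a1 was at 74.2 and 59.1 CPM in WT and 57.3 and 46.3 CPM in KO2 (0.784-fold, interval 0.609 to 1.01, edgeR adjusted p = 0.278). Cox8a was at 73.0 and 83.9 CPM in WT and 71.5 and 66.4 CPM in KO2 (0.876-fold, interval 0.704 to 1.09). Cox5a, which binds the matrix side of the core, was at 107 and 144 CPM in WT and 102 and 118 CPM in KO2 (0.871-fold, interval 0.701 to 1.08). Cox6c and Cox7c had log2 fold changes of -0.17 and -0.06, and the 2 genes above zero were Cox6b1 at 0.16 and Cox5b at 0.11.

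In each isoform family of complex IV the common form was the more abundant one. Per kilobase of transcript, Cox4i1 reached 532 CPM in WT and Cox4i2 1.14 CPM, and Cox6b1 reached 135 CPM and Cox6b2 8.41 CPM. Cox4i1, the common form of the regulatory subunit 4, was at 367 and 355 CPM in WT and 333 and 351 CPM in KO2. Its lung and oxygen-responsive counterpart Cox4i2 had 0 and 7 counts in WT and 0 and 0 counts in KO2. The muscle forms Cox6a2 and Cox8b and the testis form Cox8c had no count in any library, which allows up to 0.38 to 1.12 CPM depending on the library (3 counts; counting error only), and Cox7b2 had 1 and 1 counts in WT and 0 and 12 counts in KO2. The common partners Cox6b1, Cox7a2, Cox7b and Cox8a were at 61.5 CPM or more in every library.

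Cox7b, the common form of subunit 7b, was at 228 and 131 CPM in WT and 150 and 140 CPM in KO2, with overlapping groups (log2 fold change -0.30, edgeR adjusted p = 0.384). The first WT replicate stood apart and set the direction. Without it the log2 fold change was 0.15 (edgeR adjusted p = 0.616), and without WT replicate 2 it was -0.66 and passed the threshold (edgeR adjusted p = 0.0208).

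A pair of tissue isoforms were detected at a low level. Cox7a1, the heart and skeletal muscle form of subunit 7a, was at 22.0 and 8.98 CPM in WT and 9.64 and 4.01 CPM in KO2. The first WT replicate stood above the other 3 libraries, the groups overlapped, and the log2 fold change of -1.08 ± 0.46 did not pass (edgeR adjusted p = 0.201). Without WT replicate 1 it was -0.39 (edgeR adjusted p = 0.762) and without KO2 replicate 2 -0.57 (adjusted p = 0.53). Without WT replicate 2 it was -1.68 (edgeR adjusted p = 0.0849), and it passed without KO2 replicate 1 (-1.82, adjusted p = 0.0196). Cox6b2, the testis form of subunit 6b, was at 5.96 and 3.31 CPM in WT and 2.92 and 1.74 CPM in KO2 (-0.90 ± 0.61, edgeR adjusted p = 0.464). Cox7a2l, which takes part in joining complexes III and IV into supercomplexes, was at 126 and 109 CPM in WT and 110 and 104 CPM in KO2.

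**Figure D3:**
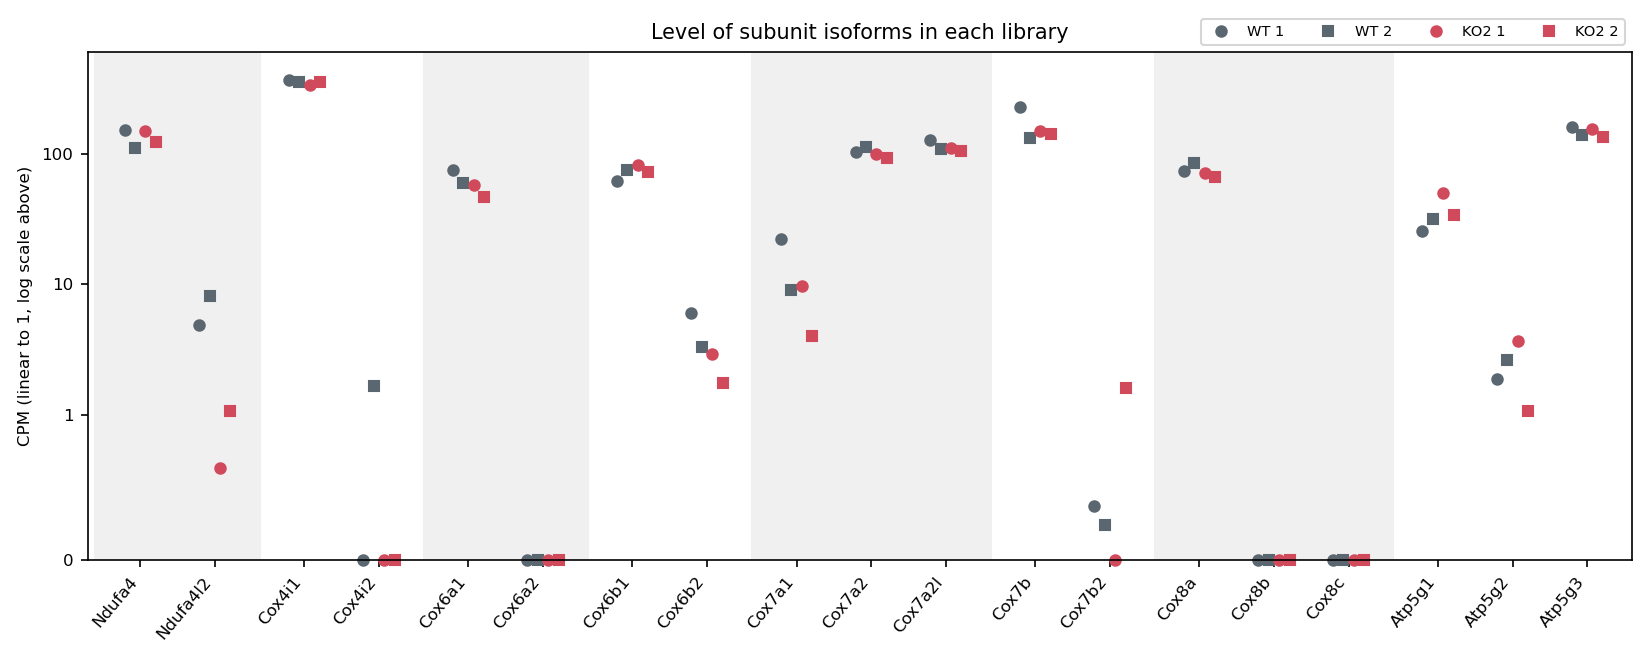
CPM of subunit isoforms in each library (y axis, linear from 0 to 1 and logarithmic above); grey symbols are WT, red symbols KO2, circles replicate 1 and squares replicate 2, with families in alternating bands. Ndufa4l2 is lower in both KO2 libraries, and Cox6a2, Cox8b and Cox8c lie at 0.

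Complex V had the largest summed CPM of the 5 complexes, without a correction for length. Its rotary F1 head is built from 5 nuclear subunits, of which none passed the test and 3 had both KO2 replicates above both WT replicates. Over all tested genes 25.4% lay wholly above. Atp5b, the catalytic beta subunit, was at 1651 and 1684 CPM in WT and 1852 and 1767 CPM in KO2 (1.09-fold, interval 0.944 to 1.25). Atp5a1, the alpha subunit, was at 937 and 848 CPM in WT and 848 and 869 CPM in KO2 (0.963-fold, interval 0.832 to 1.11). The central stalk subunits were at a log2 fold change of -0.01 for Atp5c1 (gamma), 0.34 for Atp5d (delta) and 0.62 for Atp5e (epsilon).

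The peripheral stalk holds the F1 head still against the turning rotor, and none of its 4 nuclear subunits passed the test. Atp5f1, the b subunit, was at 373 and 400 CPM in WT and 346 and 378 CPM in KO2 (0.937-fold, interval 0.801 to 1.1). Atp5o, the protein that confers oligomycin sensitivity, was at 85.7 and 60.7 CPM in WT and 89.8 and 74.3 CPM in KO2. Atp5h (d) and Atp5j (F6) had log2 fold changes of 0.00 and -0.17, and the groups overlapped for all 4 genes.

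Atp5e had 18.6 and 18.2 CPM in WT and 33.7 and 22.6 CPM in KO2, and Atp5k, a small membrane subunit, had 23.5 and 18.9 CPM in WT and 35.5 and 26.9 CPM in KO2. Both were higher in each KO2 replicate than in either WT replicate, without passing the test (edgeR adjusted p = 0.201 for Atp5e and 0.193 for Atp5k). The extremes of the group were a pair of genes that carry the Atp5 name without being stable parts of the enzyme. Atp5sl, named for its likeness to Atp5s and since linked to complex I assembly, was at 11.2 and 13.7 CPM in WT and 19.0 and 25.4 CPM in KO2 (0.81 ± 0.29, edgeR adjusted p = 0.128). Atp5s, coupling factor B, was at 8.94 and 11.1 CPM in WT and 7.74 and 5.75 CPM in KO2 (-0.59 ± 0.40, edgeR adjusted p = 0.457). Leaving both out left the complex V median at 0.06.

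The c-ring of the ATP synthase turns with the proton flow, and 3 genes, Atp5g1, Atp5g2 and Atp5g3, encode the same mature c subunit behind different import signals. The last 90 coding bases of each, stop codon included, are shown because they code for the end of that shared protein (mm9 reference, coding strand; capitals mark the 24 positions at which the 3 genes are not all alike).
Atp5g1, gene at chr11:95930166-95936984, minus strand: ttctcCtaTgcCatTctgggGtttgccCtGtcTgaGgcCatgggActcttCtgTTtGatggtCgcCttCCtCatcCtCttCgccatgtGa
Atp5g2, gene at chr15:102493299-102501478, minus strand: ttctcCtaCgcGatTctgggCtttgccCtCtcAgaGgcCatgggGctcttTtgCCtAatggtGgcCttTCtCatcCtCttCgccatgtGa
Atp5g3, gene at chr2:73746504-73749383, minus strand: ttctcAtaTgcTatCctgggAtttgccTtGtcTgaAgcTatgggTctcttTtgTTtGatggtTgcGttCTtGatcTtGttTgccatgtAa
Over these bases Atp5g1 and Atp5g2 differ at 12 positions, Atp5g1 and Atp5g3 at 17, and Atp5g2 and Atp5g3 at 23. Per kilobase of transcript Atp5g3 was the most abundant in WT, with 210 CPM against 6.08 for Atp5g1. Much of that gap comes from the transcripts used, of 714 bases for Atp5g3 and 4715 for Atp5g1. Without a correction for length the WT means were 150 and 28.7 CPM. The level of Atp5g3 was 161 and 138 CPM in WT and 155 and 133 CPM in KO2 (0.967-fold, interval 0.798 to 1.17). Atp5g1 was at 25.7 and 31.7 CPM in WT and 49.8 and 33.8 CPM in KO2 (log2 fold change 0.53 ± 0.22, edgeR adjusted p = 0.198), with both KO2 values above both WT values. It passed without KO2 replicate 2 (0.77, edgeR adjusted p = 0.0478), was at 0.70 without WT replicate 2 (adjusted p = 0.197) and was at 0.22 without KO2 replicate 1 (adjusted p = 0.797). Atp5g2 was near the floor, with 1.86 and 2.60 CPM in WT and 3.68 and 1.07 CPM in KO2.

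How far a low value reflects a gene's RNA depends on whether its reads can be placed, since reads that mapped to several places were not counted. Windows of 43 bases from 1 transcript of each subunit gene were therefore searched in the mm9 genome. For 39 genes no window occurred elsewhere, and for 9 over 50% did. All windows of Atp5g2 occurred elsewhere, at 5 other loci, 89.6% of those of Atp5l at 17 loci and 81.8% of those of Ndufs5 at 1 locus. For Atp5g1 it was 30.7%, at 27859 loci. The level of Atp5g2, 3.45 CPM per kilobase of transcript in WT, is therefore uncertain, and is set here beside 210 CPM per kilobase for Atp5g3, of which no window occurred elsewhere. Other genes with many shared windows still had high values, such as Uqcrb, a ubiquinone-binding protein of complex III, with 497 CPM per kilobase in WT and 67.1% of windows elsewhere. Over the 33 tested genes with no window elsewhere the median log2 fold change was -0.02, and over the 48 with at least 1 it was -0.03.

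**Figure D4:**
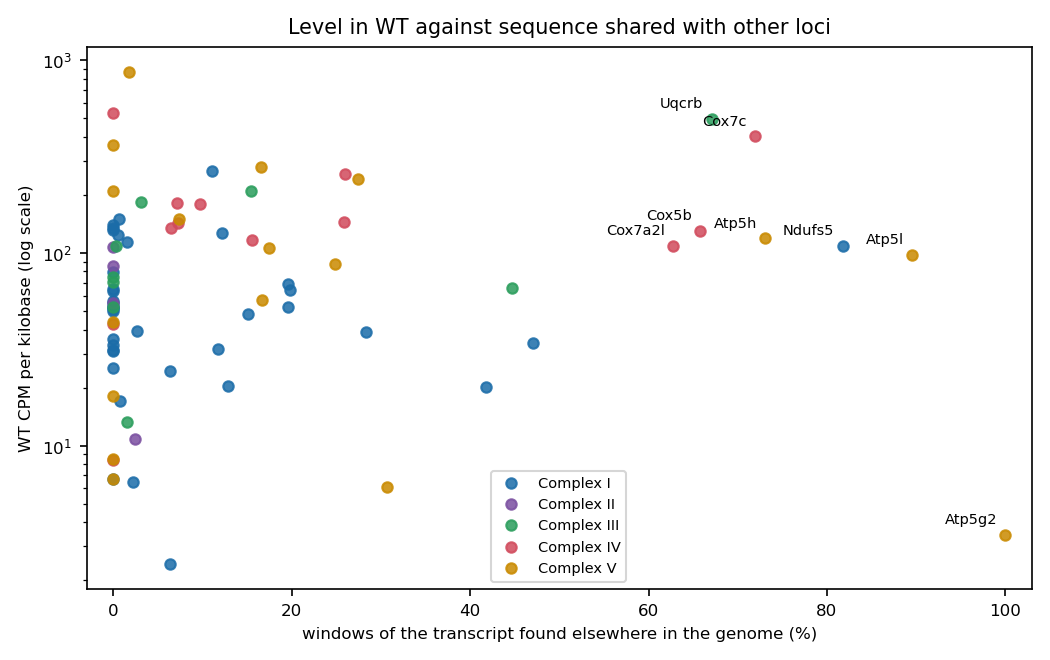
WT level per kilobase of transcript (y axis, log scale) against the percentage of 43-base windows of the transcript that occur elsewhere in mm9 (x axis) for the 81 tested subunits, coloured by complex; the 8 with over 50% are named. Atp5g2, at 100%, has one of the lowest levels, while Uqcrb and Cox7c keep high ones.

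Per kilobase of transcript, the most abundant member in WT was Atp5b at 870 CPM, followed by Cox4i1 at 532 and Uqcrb at 497. The highest of complex I was Ndufa4 at 265 CPM per kilobase and of complex II Sdhb at 107. These orders compare levels between genes, and the length used is that of 1 annotated transcript.

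Replicates of the same group differed in a shared direction for these genes. KO2 replicate 2 was below KO2 replicate 1 for 69.1% of the 81 subunits (50.4% of all tested genes), and WT replicate 2 was below WT replicate 1 for 67.9% (49.5% of all tested genes). The subunit genes were also short, with a median exonic length of 1287 bases against 3655 over 12067 tested genes with a length. Among genes of up to 700 bases, the median log2 fold change was 0.21 over all tested genes and 0.08 over the 18 subunits of that length. With offsets for the trend with length, the median over all subunits was -0.10. The part of gene length in the replicate differences was not tested.

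**Figure D5:**
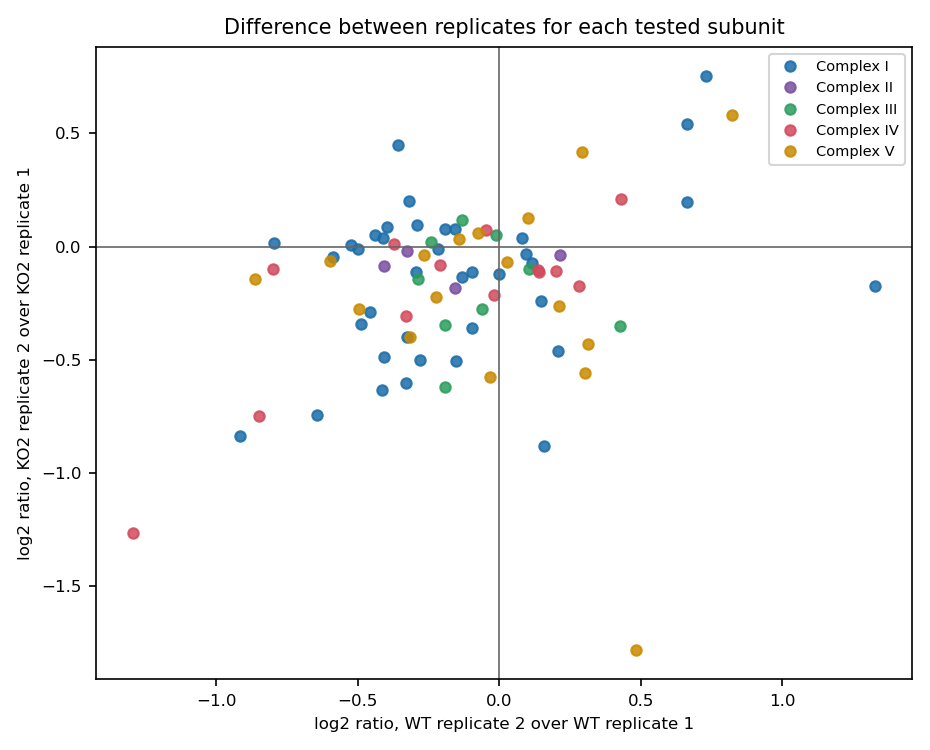
Log2 ratio of KO2 replicate 2 over replicate 1 (y axis) against that of WT replicate 2 over replicate 1 (x axis) for each of the 81 tested subunits, coloured by complex. 56 subunits lie below zero on the y axis and 55 lie left of zero on the x axis.

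Promoters were examined for what the subunit genes share in sequence, since NRF1, ETS factors such as GABPA, and YY1 are known regulators of respiratory genes. RefSeq promoters (GRCm38.p6, 250 bases before to 50 after each start) matched 67 of the 87 symbols. Those not matched included Atp5a1, Atp5f1, Atp5l-ps1, Atp5s, Atp5sl, Cox4i1, Cox4i2, Cox6a2, Cox6c, Cox8c, Cyc1, Ndufa2, Ndufa4l2, Ndufb9, Ndufs1, Sdhc, Uqcrb, Uqcrc2 and Uqcrq. The NRF1 motif (GCGCA, then any base, then GCGC) occurred in 16 of 67 (23.9%), against 4.78% of all 27025 promoters and 11.3% of the 8269 promoters of tested genes. The YY1 motif AAGATGGC occurred in 8 (11.9%), 7 of them in complex I, against 2.88% of all promoters and 4.98% of those of tested genes. The ETS motif CCGGAAG occurred in 15 (22.4%), against 9.12% and 19.1%, and the hypoxia response core ACGTG in 16 (23.9%), against 19.7% and 26.6%. Both strands were searched for each motif, no pair of motifs contains the other, and a match is a description of the letters only.

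The following 150 bases before the start show the promoters with several NRF1 matches (Sdha and Ndufb4) and those with both an NRF1 and an ETS match in that stretch (Sdhd, Cox6a1 and Atp5h), written 5′ to 3′ on the coding strand with all motif letters in capitals (GRCm38.p6).
Sdha, chr13:74350241-74350390, minus strand: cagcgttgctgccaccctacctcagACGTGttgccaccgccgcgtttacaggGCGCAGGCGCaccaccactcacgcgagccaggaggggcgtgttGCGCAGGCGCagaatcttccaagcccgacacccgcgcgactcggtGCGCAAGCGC
Ndufb4, chr16:37654369-37654518, minus strand: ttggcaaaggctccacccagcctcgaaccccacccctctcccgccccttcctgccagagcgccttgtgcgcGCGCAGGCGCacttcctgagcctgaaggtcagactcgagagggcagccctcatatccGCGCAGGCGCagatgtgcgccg
Sdhd, chr9:50603850-50603999, minus strand: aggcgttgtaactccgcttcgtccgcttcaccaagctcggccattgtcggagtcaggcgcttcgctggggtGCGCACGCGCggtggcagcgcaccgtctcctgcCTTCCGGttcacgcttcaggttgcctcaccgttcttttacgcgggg
Cox6a1, chr5:115348959-115349108, minus strand: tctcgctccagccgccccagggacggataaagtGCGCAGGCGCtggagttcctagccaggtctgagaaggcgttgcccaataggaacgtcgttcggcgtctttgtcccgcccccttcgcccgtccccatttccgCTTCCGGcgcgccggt
Atp5h, chr11:115419920-115420069, minus strand: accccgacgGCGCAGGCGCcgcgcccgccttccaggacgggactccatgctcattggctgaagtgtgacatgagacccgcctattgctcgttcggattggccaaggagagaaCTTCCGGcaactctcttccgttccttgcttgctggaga
In Sdha the capitals mark 3 NRF1 matches and 1 match of the hypoxia response core, and in Ndufb4 they mark 2 NRF1 matches. In the other 3 promoters the longer run is the NRF1 match and the shorter one the ETS match. None of these 5 genes passed the test, with log2 fold changes of -0.14 for Sdha, 0.18 for Ndufb4, 0.10 for Sdhd, -0.35 for Cox6a1 and 0.00 for Atp5h.

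Of the factors that act on respiratory genes, 18 listed regulators were in the files and 15 were tested. With edgeR 1 of these rose in KO2 and none fell, where 2.61% of all tested genes rose and 3.04% fell. At an unadjusted p under 0.05 edgeR had 2 higher and 1 lower (20%, against 19.4% of all tested genes). DESeq2 called 1 higher and 0 lower. The gene that rose was *Pprc1*, a coactivator of the PGC-1 family that works with NRF1. It was at 64.1 and 57.4 CPM in WT and 105 and 93.6 CPM in KO2 (log2 fold change 0.71 ± 0.15, edgeR adjusted p = 0.00702). Its call was lost in edgeR without WT replicate 2 (0.63, adjusted p = 0.064), with spike-in normalization (0.80, adjusted p = 0.363) and without the filter (0.74, adjusted p = 0.143), at fold changes of about the same size. Its relatives were at or near 0, with no count of *Ppargc1a* in any library and at most 0.535 CPM of *Ppargc1b*. *Nrf1* was at 86.5 and 87.9 CPM in WT and 75.7 and 88.0 CPM in KO2, and *Gabpa*, *Esrra* and *Tfam*, the mitochondrial DNA packaging factor, had log2 fold changes of -0.13, 0.13 and -0.13 without passing the test. *Yy1* was at 189 and 219 CPM in WT and 156 and 171 CPM in KO2 (-0.32, edgeR adjusted p = 0.147).

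Assembly factors, which build the complexes without remaining in them, were read from a list of 37 genes, 34 of them tested, which also holds *Cycs* and *Usmg5*. With edgeR 1 of these rose and none fell, where 2.61% of all tested genes rose and 3.04% fell. At an unadjusted p under 0.05 edgeR had 3 higher and 1 lower (11.8%, against 19.4% of all tested genes). DESeq2 called 1 higher and 0 lower, and the median log2 fold change with edgeR was 0.07. The gene that rose was *Tmem70*, which assists the assembly of ATP synthase, with 88.7 and 71.8 CPM in WT and 127 and 161 CPM in KO2 (0.85 ± 0.15, edgeR adjusted p = 0.00203). Without WT replicate 2 it narrowly missed the threshold (0.70, adjusted p = 0.0508), and it missed it with spike-in normalization (0.97, adjusted p = 0.168) and without the filter (0.88, adjusted p = 0.151). *Cycs*, the mobile carrier cytochrome c, was at 66.7 and 44.0 CPM in WT and 55.3 and 56.9 CPM in KO2. Another 2 genes that RefSeq names as small ATP synthase subunits under other symbols, *Usmg5* and 2010107E04Rik, had log2 fold changes of 0.17 and 0.16 and did not pass the test.

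The 7 subunit genes left out by the filter on low counts were the second Ndufb8 identifier, Cox4i2, Cox6a2, Cox7b2, Cox8b, Cox8c and Atp5l-ps1, of which 4 had no count in any library. Atp5l-ps1, an intronless copy annotated as protein-coding, had 2 and 0 counts in WT and 3 and 1 counts in KO2, with 58.9% of its windows elsewhere. In addition, 20 of the 88 genes overlap an exon of another gene, mostly on the opposite strand, such as Atp5o with 44% of its exonic bases and Ndufb6 with 39%. The values of these genes are uncertain to that extent.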

How the data were processed

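RNA-seq samples of WT and KO2 R1 ESCs (2 each) were grouped by their titles. According to the methods, strand-specific libraries were made after ribosomal RNA removal and mapped to mm9 with HISAT2, and the authors deposited raw HTSeq counts per gene for each sample. Versions, annotation and counting options are not given in the sources used here. Symbols and coordinates came from GENCODE M1 (mm9), which matched 32782 of 48526 identifiers.

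Summary rows (no feature, ambiguous, not unique) made up 52.9 to 58.8% of each file and stayed out, as did the spike-ins. Counts were TMM-normalized in edgeR 4.0.16 (R 4.3.3), filtered with filterByExpr (minimum count 10, total 15) and compared with glmQLFit and glmQLFTest, with Benjamini-Hochberg adjustment over all 12883 genes and a threshold of 0.05. CPM are given per replicate or as mean ± SD, and fold changes with SE or 95% intervals. DESeq2 1.42.0, other normalizations and filters, a replicate block, length offsets and leaving out each replicate were alternatives, and the median over genes with no window elsewhere was added after seeing the data. The fit was tested on simulated counts, where it recovered 5.97% of 1.5-fold, 64.2% of 2-fold and 89.4% of 3-fold changes. A gene that did not pass the test may therefore still differ between the groups. The simulation gave all 12883 genes the same spread between replicates (coefficient of variation 0.15). Its changed genes, 67 at 1.5-fold, 67 at 2-fold and 66 at 3-fold, were drawn from all of them. The rates were not computed for the subunits alone.

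The members and lists were chosen with earlier results of these data known. Genes are named by rule: subunits called, extremes and the most abundant per complex, isoform families, catalytic cores, subunits filtered out, and called assembly factors and regulators. Other accessory and stalk subunits, and genes shown for sequence or as regulators were named after their values were seen. The values of 1 subunit are not reported here.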

Additional observations from a re-analysis of the deposited data

How the results depend on the processing

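Ndufa4l2 was called lower in 10 of 13 fits in which it was tested. The number of subunits called lower was 0 without the filter and with at least 10 counts in every sample, and 3 with offsets for length, and the number called higher was 1 with at least 10 counts in every sample. With the replicate number as a block, the numbers were 1 higher (Uqcr10, adjusted p = 0.0346) and 2 lower (Ndufa4l2 and Ndufv2, the latter at an adjusted p of 0.0481). Over all tested genes same-numbered samples did not deviate together (correlation -0.00658), and replicate 2 was below replicate 1 for 50.4% in KO2 and 49.5% in WT. Over the subunits those shares were 69.1% in KO2 and 67.9% in WT, and no correlation was computed for them. The labels do not say that a number marks a shared culture or day. No assembly factor was called higher with spike-in normalization or without the filter. Over all tested genes, 90 were called higher and 73 lower with spike-in normalization, 29 and 32 without the filter, and 192 were called higher with DESeq2. With the block, 476 were higher and 474 lower.

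With spike-in normalization the median log2 fold change was 0.07 for all subunits, 0.16 for complex III and -0.10 for complex IV, where the median of all genes was 0.09. With offsets for length it was -0.31 for complex IV and -0.06 for complex V. Without the filter the median of all genes was 0.12. When each replicate was left out in turn, the fits called 122 to 341 genes higher and 148 to 350 lower, 0 to 1 subunits higher and 1 to 2 lower, and 0 to 1 assembly factors higher. The medians ranged from -0.09 to 0.06 for all subunits, -0.16 to 0.11 for complex I, -0.08 to 0.10 for complex II, -0.01 to 0.12 for complex III, -0.16 to -0.11 for complex IV, and -0.04 to 0.10 for complex V. The cause of these shifts was not tested. The subunits named by rule kept their side of the threshold in 456 of 466 refits. The sign of the log2 fold change turned in 32 refits of 14 subunits, each with a main value of 0.30 or less in size and none past the threshold in either fit. Both WT libraries were shallower than both KO2 libraries, which limits the precision of the low isoforms in WT.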
